A study of Mus musculus with 15 samples.

Results

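The nuclear genes of oxidative phosphorylation were taken as the protein-coding rows whose mouse symbol names a subunit of complexes I to V, namely Nduf followed by a, b, c, s or v and a digit, Sdha to Sdhd, and names beginning with Uqcr, Cox4 to Cox8 or Atp5. The rule found 86 genes among 27179 gene IDs. Complex I had 39, complex II 4, complex III 8, complex IV 18 and complex V 17. A filter on low counts kept 79 of the 86 for testing among 17151 genes. Of the members, 8 are isoforms known from particular tissues (Cox4i2, Cox6a2, Cox6b2, Cox7a1, Cox7b2, Cox8b, Cox8c and Ndufa4l2) and are described apart, which left 75 tested members outside that set. The rule leaves out Ndufab1, a subunit of complex I, and Cyc1, a subunit of complex III, which are counted only in another list near the end. Ndufb1 and the subunits encoded by mitochondrial DNA were not analysed here.

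Oxidative phosphorylation is the process by which mitochondria make ATP. Complex I (NADH dehydrogenase) and complex II (succinate dehydrogenase) pass electrons to ubiquinone, complex III (the cytochrome bc1 complex) passes them on to cytochrome c, and complex IV (cytochrome c oxidase) passes them to oxygen. Complexes I, III and IV pump protons as they do so, and complex V (ATP synthase) uses the proton gradient to form ATP. Most subunits are encoded in the nucleus, and neurons, which spend much ATP on ion pumping, depend heavily on the pathway.

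The study compared bulk RNA from brain hemisphere samples of 12-month-old mice, prepared with a total RNA kit that removes ribosomal RNA, although the molecule label reads polyA RNA. The 7 TG libraries came from mice homozygous for human α-synuclein driven by the PLP promoter, which acts in oligodendrocytes, a model of multiple system atrophy. The 8 WT libraries came from age- and sex-matched non-transgenic mice of the C57Bl/6 background. There were 4 WT male, 4 WT female, 4 TG female and 3 TG male libraries, and every library of such a group shares a leading number in its title that differs between the groups. What that number stands for is not given, so an animal, cage or litter behind it cannot be told apart from genotype and sex, and p-values are too small if libraries share an animal.

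Libraries that carry the same tissue label differed in genes that mark brain regions, and these differences are given before any result because they touch all of them. Clustering on 6 lists of region markers, none of them an oxidative phosphorylation gene, gave 4 classes. In 4 libraries (WT male 3, WT female 3, TG female 1 and TG female 4) the 12 hindbrain markers, mostly Hox genes, summed to 483 to 595 CPM (a gene's count relative to its library's scaled total), against 0.181 to 0.461 CPM in the olfactory-marker class, where Lhx4 was at 0. In 3 libraries (WT male 4, WT female 2 and TG male 4) 12 genes of cortical excitatory neurons summed to 3280 to 3670 CPM, against 1120 to 1820 CPM in the olfactory-marker class. The other 7 libraries, 4 WT and 3 TG, had 938 to 2160 CPM of 10 olfactory bulb markers, against 160 to 347 CPM in the cortex-marker class. One library, TG female 3, had 7810 CPM of 11 cerebellar markers, against 66.5 to 183 CPM in all others. Striatal markers (248 to 1700 CPM) and hypothalamic markers (2.91 to 109 CPM) varied within the olfactory-marker class. Hypothalamic markers also varied within the hindbrain-marker class (5.45 to 53.5 CPM). Neuron markers were high in every library (6650 to 13000 CPM in sum). No TG male library fell in the hindbrain-marker class, so genotype, sex and class are not balanced. The classes are groupings made from these data and not the study's groups. Library totals ran from 15170772 to 35850998 counts.

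Short promoter sequences are shown first, from 4 members that were all higher in the hindbrain-marker class below (log2 differences of 0.43 for Cox6a1, 0.47 for Ndufb4, 0.63 for Ndufs6 and 0.44 for Atp5g3). RefSeq windows (build GRCm38.p6) of 250 bases before to 50 bases after a start were matched for 69 of the 86 members. The motif of NRF1, a factor known for binding respiratory genes, was searched as GCGCA and GCGC with any 1 base between them, that of GABP and other ETS factors as CCGGAAG, that of the estrogen-related receptors (ERR) as TNAAGGTCA and that of YY1 as AAGATGGC, all on both strands. NRF1 motifs were found in 17 members (24.6%), ETS motifs in 17 (24.6%), YY1 motifs in 10 (14.5%) and ERR motifs in 3 (4.35%). Over all 32851 windows of the same length the shares were 4.6%, 8.86%, 2.75% and 1.28%. A match is a run of letters and does not show that a factor binds. The 4 stretches below run 5′ to 3′ over the 120 bases before a RefSeq start of a member, with motif letters in capitals, and each shows a different arrangement.
Cox6a1: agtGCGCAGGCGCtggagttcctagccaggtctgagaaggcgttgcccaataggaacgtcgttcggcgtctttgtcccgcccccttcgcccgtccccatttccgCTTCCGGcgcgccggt
Ndufb4: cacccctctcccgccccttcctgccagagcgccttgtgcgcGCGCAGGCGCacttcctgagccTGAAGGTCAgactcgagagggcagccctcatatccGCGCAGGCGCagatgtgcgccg
Ndufs6: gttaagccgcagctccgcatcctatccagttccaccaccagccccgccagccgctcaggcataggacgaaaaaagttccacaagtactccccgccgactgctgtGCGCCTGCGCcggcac
Atp5g3: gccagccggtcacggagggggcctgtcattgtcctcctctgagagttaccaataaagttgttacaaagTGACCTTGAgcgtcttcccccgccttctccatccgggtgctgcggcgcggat

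All 4 lie on the minus strand. The Cox6a1 stretch (chr5:115348959-115349078) held an NRF1 motif and an ETS motif, the latter read on the other strand as CTTCCGG. The Ndufb4 stretch (chr16:37654369-37654488) held an ERR motif between 2 NRF1 motifs. The Ndufs6 stretch (chr13:73328483-73328602) held an NRF1 motif near the start, read on the other strand as GCGCCTGCGC, and the Atp5g3 stretch (chr2:73911327-73911446) an ERR motif read on the other strand. The Atp5g3 stretch lies inside the annotated gene (chr2:73908447-73912464), before an inner start, unlike those of Cox6a1, Ndufb4 and Ndufs6.

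Comparing levels per kilobase of transcript, complex V held the highest member, with Atp5b, the catalytic β subunit of ATP synthase, at a mean of 464 CPM per kb over the 15 libraries. Cox8a, a small structural subunit, was the highest of complex IV at 317 CPM per kb, and Ndufb10 the highest of complex I at 117 CPM per kb among members with a transcript length, which Ndufb4b and Ndufb4c lacked. The Rieske iron-sulfur protein Uqcrfs1 was highest in complex III at 101 CPM per kb, and the flavoprotein Sdha in complex II at 84.3 CPM per kb. The lowest tested members were Sdhb, the iron-sulfur subunit of complex II (5.93 CPM per kb), Uqcrq in complex III (26.2 CPM per kb) and Atp5j2 in complex V (5.16 CPM per kb). In complexes I and IV they were the tissue isoforms Ndufa4l2 (2.0 CPM per kb) and Cox7a1 (1.64 CPM per kb). Outside the tissue isoforms they were Ndufa8 (2.69 CPM per kb) and Cox7a2 (5.65 CPM per kb). The ranking depends on the length used, that of the shortest matched transcript of a gene. Uqcrq was given 1521 bases and Uqcrb 535, although Uqcrq had the higher level (31.7 to 54.2 against 11.5 to 18.8 CPM). The ranking may also depend on how reads that match several places were counted, which the labels do not state. Low values such as those of Sdhb and Cox7a2 are thus levels in the table and not measures of the transcripts.

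Several subunits that are structural parts of their complexes had almost no counts. Uqcr11, a small subunit of complex III, had 4 counts over all 15 libraries, Ndufa12, an accessory subunit of complex I, had 31 and Sdhd, a membrane anchor of complex II, had 38. These 3 genes and 4 tissue isoforms (Cox4i2, Cox7b2, Cox8b and Cox8c) did not pass the filter. How reads that match several places were counted is not stated in the labels, so these low values are levels in the table and not measures of the transcripts. Ndufb4, Ndufb4b and Ndufb4c are uncertain for the same reason: Ndufb4b had 0.889 to 0.929 counts per Ndufb4c count in every library, and the copies lie inside Dock8 and Mroh5. In all, 18 members overlap another protein-coding gene.

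Most members rose in the hindbrain-marker libraries. Against the olfactory-marker class, 62 of 79 tested members were higher and 3 lower by edgeR's quasi-likelihood test at a Benjamini-Hochberg adjusted p of 0.05, with genotype and sex as covariates and all 15 libraries in the fit. Of all tested genes 33.1% were called higher and 33.7% lower. The median member differed by a log2 value of 0.41 (1.33-fold), while the median of all genes was 0.0. Lowest and highest levels did not overlap for 50 members, with all 4 hindbrain-marker libraries above all 7 olfactory-marker libraries, a pattern met by 24.8% of all genes. Of the members, 20 stood above every other library, the cerebellum-marker one included (12.5% of all genes). In bulk RNA, more cells of a type and more RNA per cell cannot be told apart.

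**Figure D1:**
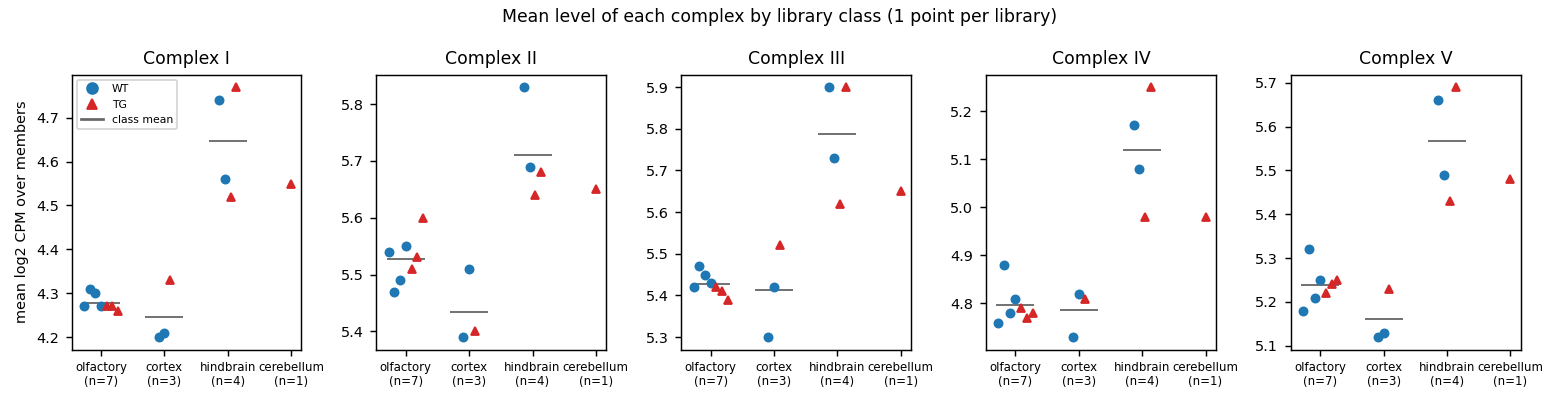
Mean log2 CPM over the tested members of each complex (tissue isoforms left out), 1 panel per complex and 1 point per library, with libraries grouped by class on the x axis, WT as circles, TG as triangles and the class mean as a line. In complex I the hindbrain-marker libraries lie at 4.52 to 4.77 and the olfactory-marker libraries at 4.26 to 4.31.

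By complex, the median log2 difference between the hindbrain-marker and olfactory-marker classes was 0.41 for complex I (29 of 37 higher, 1 lower), 0.3 for complex II (2 of 3 higher), 0.42 for complex III (7 of 7 higher), 0.43 for complex IV (9 of 11 higher, 1 lower) and 0.36 for complex V (13 of 17 higher). The summed level of all members was 5235 to 6098 CPM in the 4 hindbrain-marker libraries and 4332 to 4597 CPM in the 7 olfactory-marker libraries. The groups did not overlap for that sum.

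**Figure D2:**
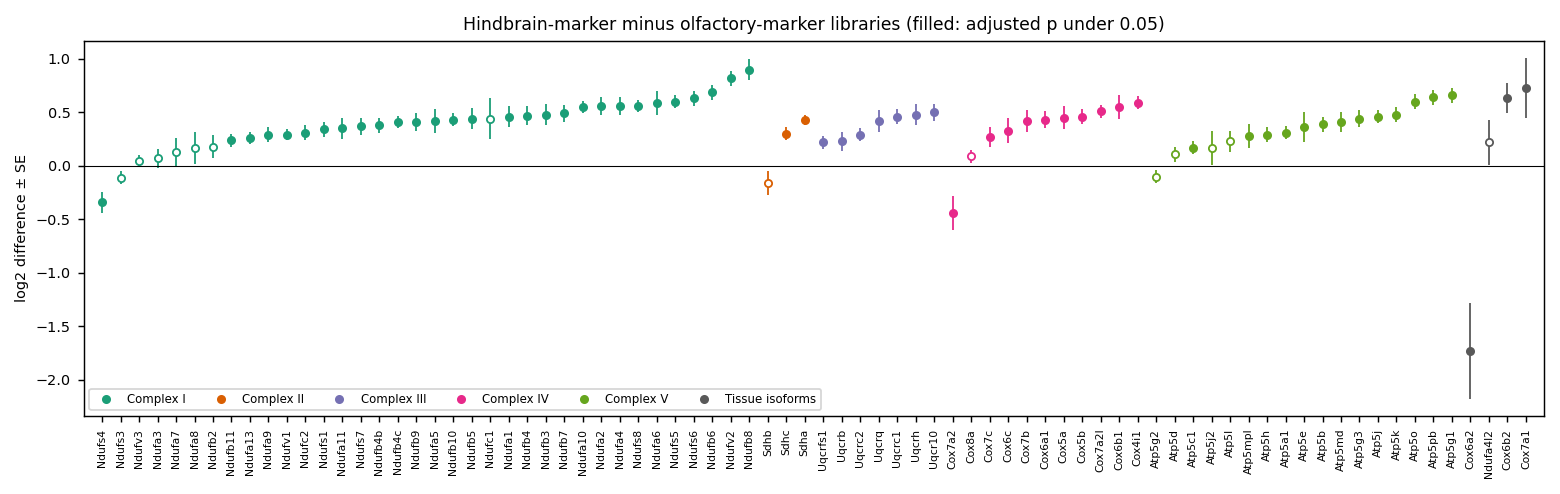
Log2 difference ± SE of the tested members shown, all but 1, between the 4 hindbrain-marker and the 7 olfactory-marker libraries, ordered by complex (colour) and size, with called members filled. Complex I runs from -0.34 for Ndufs4 to 0.9 for Ndufb8, and Cox6a2 is the lowest of all at -1.73.

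In complex I, 6 of the 7 core subunits, which carry the flavin and iron-sulfur centres, were higher. Ndufv2, a core subunit with an iron-sulfur cluster (gene ID 72900, chr17:66078795-66101559), had 22.2, 19.8, 18.5 and 21.3 CPM in the hindbrain-marker libraries WT male 3, WT female 3, TG female 1 and TG female 4. Its olfactory-marker values ran from 10.7 to 12.5 CPM with a median of 12.0, and its cortex-marker values were 12.5, 12.1 and 12.0 CPM. All 4 hindbrain-marker libraries stood above every other library for Ndufv2, including the cerebellum-marker library at 14.1 CPM. Its log2 difference from the olfactory-marker class was 0.82 ± 0.07 (SE), with an edgeR adjusted p of 3.19e-07. The annotation places Ankrd12 over its end, so reads of the 2 genes could be shared.

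Ndufv1, the subunit that binds NADH, had 166, 155, 157 and 179 CPM in those 4 libraries and 130 to 144 CPM (median 133) in the olfactory-marker class. Ndufs1, the largest core subunit, had 42.0, 40.0, 36.1 and 46.4 CPM against 30.4 to 35.3 CPM (median 32.7). For both genes the groups did not overlap, and their log2 differences were 0.29 ± 0.05 and 0.34 ± 0.07, with edgeR adjusted p-values of 0.000347 and 0.000812. Ndufs3 was the core subunit that did not pass, at -0.11 ± 0.06 with an edgeR adjusted p of 0.131.

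Among the accessory subunits, which stabilise complex I, 23 of 30 were higher and 1 lower. Ndufb8 (gene ID 67264, chr19:44548571-44555442) had 38.6, 32.0, 30.8 and 40.8 CPM in the hindbrain-marker libraries and 16.0 to 20.9 CPM (median 19.6) in the olfactory-marker libraries. Its log2 difference was 0.9 ± 0.1 (1.87-fold, edgeR adjusted p = 3.89e-06), the highest value among the members, and the groups did not overlap. Ndufb6 had 30.7, 27.3, 23.0 and 28.0 CPM against 16.0 to 19.2 CPM (median 17.6), again with no overlap, a difference of 0.69 ± 0.07 with an edgeR adjusted p of 3.29e-06. Ndufs4, an accessory subunit needed for the stability of the NADH-binding arm, went the other way: it had 15.8, 15.7, 15.7 and 14.7 CPM against 16.3 to 23.2 CPM (median 19.8), a log2 difference of -0.34 ± 0.1 with an edgeR adjusted p of 0.00827. It lost its call in WT libraries alone and with the classes from 5 marker lists.

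**Figure D3:**
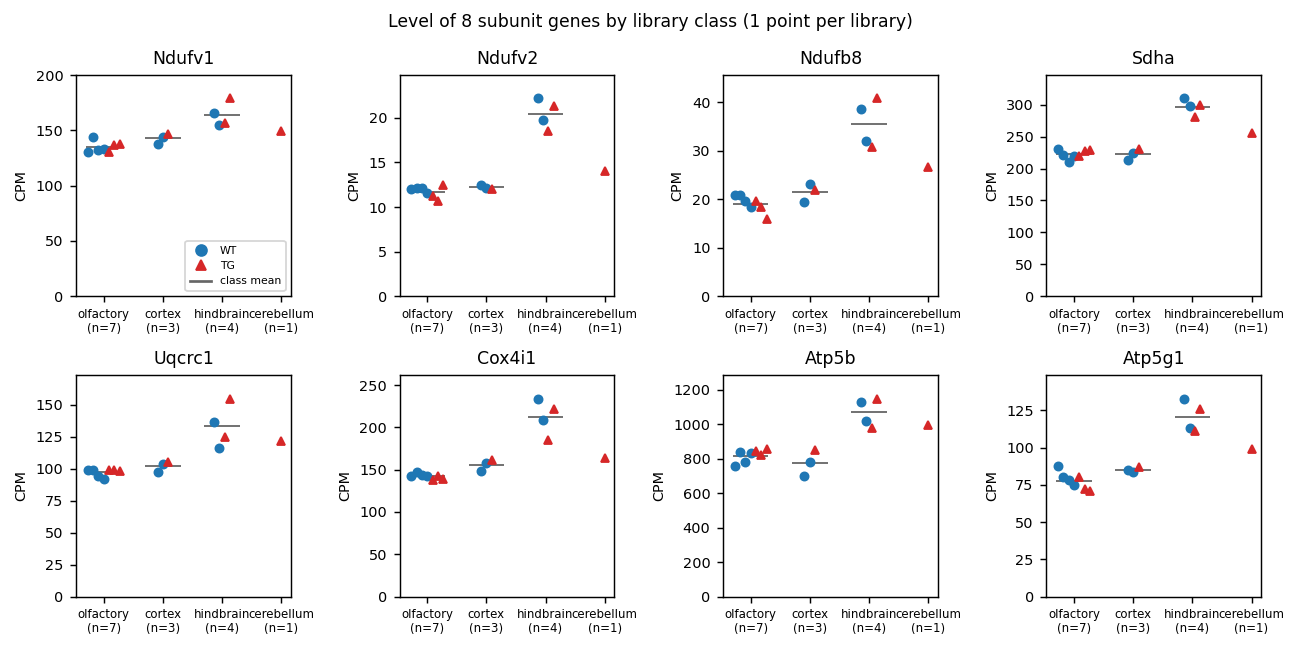
CPM of 8 subunit genes, 1 panel each and 1 point per library, with libraries grouped by class on the x axis, WT as circles, TG as triangles and the class mean as a line. Ndufv2 lies at 18.5 to 22.2 CPM in the hindbrain-marker class and 10.7 to 12.5 CPM in the olfactory-marker class.

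In complex II Sdha and Sdhc were higher and Sdhb did not pass, and the difference between these members was not tested. Sdha, the flavoprotein that oxidises succinate, had 310, 298, 280 and 299 CPM in the hindbrain-marker libraries and 211 to 230 CPM (median 221) in the olfactory-marker libraries, a log2 difference of 0.43 ± 0.05 with an edgeR adjusted p of 3.54e-06. Sdhc, a membrane anchor, was higher by 0.3 ± 0.06. Sdhb had 7.04, 5.81, 6.0 and 6.02 CPM against 6.4 to 8.02 CPM (median 6.86), and its log2 difference of -0.16 ± 0.11 did not pass (edgeR adjusted p = 0.196). The ranges of Sdhb overlapped, while those of Sdha did not.

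All 7 tested members of complex III were higher. Uqcrc1, a core protein of the matrix side, had 137, 116, 125 and 155 CPM against 92.4 to 99.1 CPM (median 98.7), a log2 difference of 0.46 ± 0.07 with an edgeR adjusted p of 5.23e-05. Uqcrfs1 had 163, 150, 142 and 153 CPM against 127 to 137 CPM (median 129), a difference of 0.22 ± 0.06 with an edgeR adjusted p of 0.00509. The ranges did not overlap for either gene. The 3 core subunits among the members, which leave out Cyc1, had a median difference of 0.29, and the 4 small subunits 0.45.

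In complex IV, Cox4i1, the subunit through which ATP is known to regulate the enzyme (gene ID 12857, chr8:120668225-120674209), had 234, 209, 185 and 222 CPM in the hindbrain-marker libraries. It had 138 to 147 CPM (median 143) in the olfactory-marker libraries and 148, 158 and 161 CPM in the cortex-marker libraries. Each hindbrain-marker library stood above every other library, and the log2 difference from the olfactory-marker class was 0.59 ± 0.06 (edgeR adjusted p = 1.71e-06). Cox5a, a small subunit on the matrix side, had 10.7, 13.3, 10.1 and 13.8 CPM against 7.31 to 9.42 CPM (median 8.98), a difference of 0.45 ± 0.11 with an edgeR adjusted p of 0.00333. Cox7a2l, which the name rule includes, is known as a factor of respiratory supercomplexes rather than as a plain subunit.

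In complex V the peripheral stalk, which holds the catalytic head still, had a median log2 difference of 0.53 (4 of 4 higher), the proton-carrying c-ring genes 0.44 (2 of 3 higher), the F1 head 0.31 (4 of 5 higher) and other membrane subunits 0.28 (3 of 5 higher). Atp5b (gene ID 11947, chr10:128083307-128090388) had 1130, 1020, 980 and 1150 CPM in the hindbrain-marker libraries against 756 to 855 CPM (median 832). Atp5a1, the other large subunit of the head, had 867, 757, 749 and 882 CPM against 622 to 704 CPM (median 668). Neither pair of ranges overlapped, and the differences were 0.39 ± 0.07 and 0.31 ± 0.06, with edgeR adjusted p-values of 0.000215 and 0.000823. Atp5c1, the central shaft, had 73.6, 72.4, 63.2 and 74.5 CPM against 56.6 to 67.3 CPM (median 62.8). Its ranges overlapped, with a difference of 0.17 ± 0.06 and an edgeR adjusted p of 0.0308.

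The 3 c-ring genes encode the same mature protein and differ in their import sequences. Atp5g1 had 133, 113, 111 and 126 CPM in the hindbrain-marker libraries against 70.9 to 87.5 CPM (median 78.1), a log2 difference of 0.66 ± 0.07 with an edgeR adjusted p of 1.94e-06. Atp5pb, the b subunit of the stalk, had 104, 95.4, 85.8 and 99.6 CPM against 56.4 to 70.0 CPM (median 62.3), a difference of 0.64 ± 0.07 with an edgeR adjusted p of 4.37e-06. For both genes the ranges did not overlap. The c-ring gene Atp5g3 differed by 0.44. Atp5g2 had 30.6, 29.0, 28.3 and 30.0 CPM against 29.8 to 33.7 CPM, and its difference of -0.1 ± 0.06 did not pass (edgeR adjusted p = 0.142). The difference between the c-ring genes was not tested.

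Cell type markers moved with the same libraries. All 10 oligodendrocyte markers were higher in the hindbrain-marker class, with summed levels of 17900 to 23200 CPM against 1900 to 3560 CPM in the olfactory-marker class. Of 10 neuron markers 6 were higher and 4 lower (9950 to 10900 CPM against 7400 to 8270 CPM). Those higher were led by the neurofilament genes Nefm (log2 difference 3.54) and Nefl (2.91). Among the markers going the other way, Syt1 had 386 to 531 CPM against 1680 to 2070 CPM. Of 8 astrocyte markers 7 were higher and 1 lower (4590 to 6300 CPM against 3130 to 4040 CPM), and of 8 microglia markers 4 were higher (315 to 384 CPM against 286 to 358 CPM). Endothelial and pericyte lists had 5 of 8 and 5 of 10 higher. Of all genes 33.1% were higher and 33.7% lower, and nothing particular to these lists is read from their counts. The part of these cell types in the members' difference was not tested. In the cortex-marker class 6 of 10 oligodendrocyte markers were higher than in the olfactory-marker class (25.0% of all genes). Their sum of 2630 to 5380 CPM overlapped the olfactory-marker range of 1900 to 3560 CPM.

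The same direction held against the cortex-marker class, which shares the 4 hindbrain-marker libraries with the comparison above. There 61 of 79 members were higher and 2 lower, with 28.2% and 27.5% of all genes called in those directions and a median log2 difference of 0.42. The groups did not overlap for 53 members (29.8% of all genes). Members higher included Cox6b2 (1.13), Ndufv2 (0.78 ± 0.09, edgeR adjusted p = 6.87e-06), Ndufb8 (0.73), Ndufb7 (0.73), Ndufa6 (0.68) and Atp5e (0.65), of which Atp5e lost its call in WT libraries alone and with the classes from 5 marker lists. Cox6a2 (-3.78) and Cox8a (-0.3) were lower, and Cox8a lost its call in the same settings. The 4 hindbrain-marker libraries stood above all olfactory-marker and cortex-marker libraries for 43 members (17.3% of all genes) and below both classes for 0 members (17.1% of all genes).

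The cortex-marker and olfactory-marker libraries differed in few members. Of 79, 6 were higher and 11 lower, when 25.0% and 23.9% of all genes were called in those directions. The cortex-marker libraries lay wholly above the olfactory-marker libraries for 7 members (19.9% of all genes) and wholly below for 11 (17.9% of all genes). The median log2 difference was -0.02, and of the members called lower Cox7a2 and Ndufv3 had the largest differences. Ndufv3, a complex I accessory subunit (gene ID 78330, chr17:31520115-31531326), had 20.1, 21.4 and 21.0 CPM in the cortex-marker libraries WT male 4, WT female 2 and TG male 4, against 30.8 to 32.9 CPM (median 32.0) in the olfactory-marker libraries. It had 31.3 to 35.9 CPM in the hindbrain-marker libraries. The cortex-marker values were thus the lowest of all libraries, with a log2 difference of -0.6 ± 0.06 and an edgeR adjusted p of 7.47e-06.

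Also lower in the cortex-marker class were Cox6b2 (-0.5), Ndufb2 (-0.45), Atp5g2 (-0.34) and Ndufs4 (-0.29). Ndufs4 lost its call without any 1 of WT male 2, WT male 4, WT female 2, WT female 4, TG female 1, TG male 1 and TG male 3, Cox6b2 without WT female 1, WT female 2, TG male 1 or TG male 4, and Ndufb2 without TG male 4. Higher were Cox6a1 and Cox8a, described below, Ndufb6 (0.24) and the uncertain copies Ndufb4c (0.27) and Ndufb4b (0.24); these 3 lost their calls without TG male 4, and Ndufb6 also without WT male 4. No member of complex III passed. With 3 libraries in the class, the counts depended on single libraries: the number lower was 6 without WT male 4, 5 without WT female 2, and 7 without TG male 1 or without TG male 4, and the number higher was 3 without TG male 4. In WT libraries alone 3 were higher and 2 lower, and with classes from 5 marker lists, which move 2 libraries from the olfactory-marker to the cortex-marker class, 0 members passed.

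Of the 4 tested tissue isoforms, 2 were higher in the hindbrain-marker than in the olfactory-marker class (Cox7a1 and Cox6b2) and 1 was lower (Cox6a2). Cox6a2, the heart and skeletal muscle form of subunit 6A (gene ID 12862, chr7:128205435-128206366), which is also known in parvalbumin interneurons, had 4.51, 8.36 and 11.3 CPM in the cortex-marker libraries WT male 4, WT female 2 and TG male 4. It had 0.659 to 3.09 CPM (median 2.1) in the olfactory-marker libraries, 0.246, 0.806, 0.904 and 0.795 CPM in the hindbrain-marker libraries WT male 3, WT female 3, TG female 1 and TG female 4, and 2.57 CPM in the cerebellum-marker library. The cortex-marker libraries stood above all others, and only TG male 3 of the olfactory-marker libraries reached the hindbrain-marker range. The log2 differences were 2.05 ± 0.36 for cortex against olfactory (edgeR adjusted p = 0.000594) and -1.73 ± 0.45 for hindbrain against olfactory (edgeR adjusted p = 0.00449). The former call was lost with the classes from 5 marker lists, and the latter with a replicate block (-1.07).

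Cox6a1, the common form of subunit 6A, had 144, 142 and 159 CPM in the cortex-marker libraries and 149, 124, 125 and 149 CPM in the hindbrain-marker libraries, against 90.6 to 113 CPM (median 105) in the olfactory-marker libraries. Both classes stood above the olfactory-marker range, by 0.52 ± 0.08 and 0.43 ± 0.08 with edgeR adjusted p-values of 0.000209 and 0.000306. Of 7 markers of parvalbumin interneurons, 3 were higher in the cortex-marker class (25.0% of all genes), namely Pvalb (log2 3.25), Kcns3 (2.51) and Kcnc2 (0.65). In the hindbrain-marker class 2 were higher, Pvalb (4.29) and Kcns3 (3.66), and 1 lower, Erbb4 (-0.51), with a list median of 0.13. There 33.1% of all genes were higher and 33.7% lower. Skeletal muscle markers summed to 21.9 to 24.2 CPM in the cortex-marker class and 7.86 to 13.8 CPM in the olfactory-marker class. Whether either list bears on Cox6a2 was not tested.

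**Figure D4:**
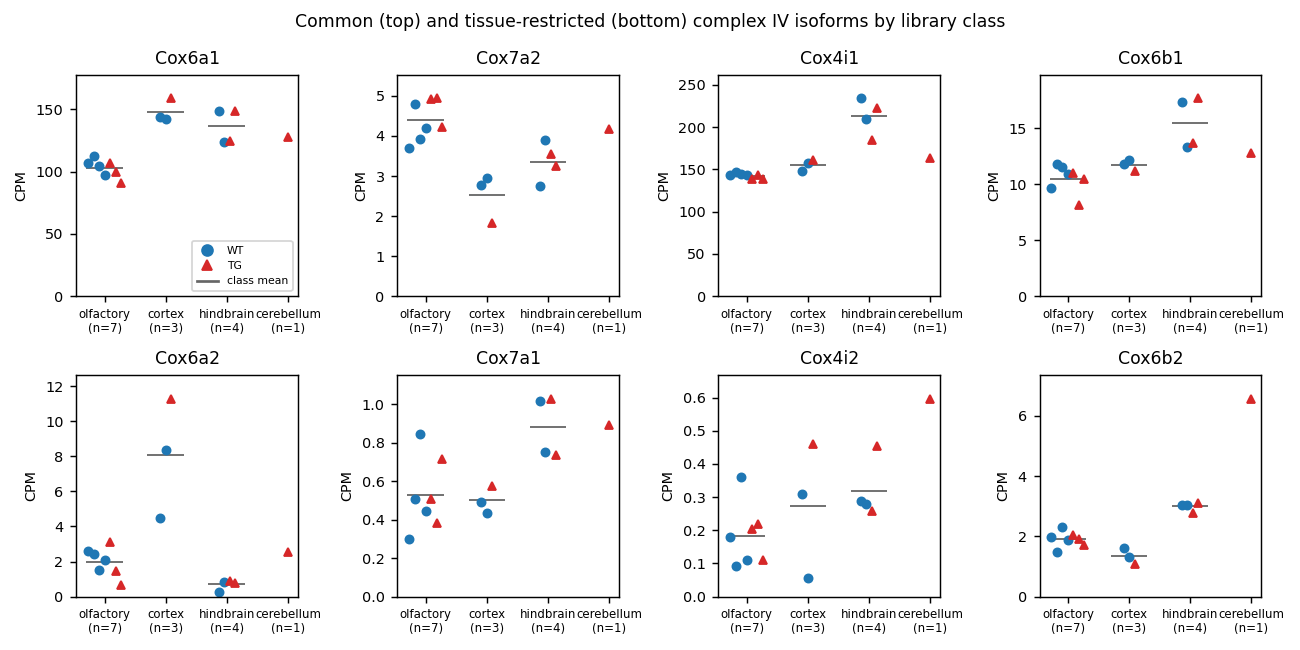
CPM of common (top row) and tissue-restricted (bottom row) complex IV isoforms, 1 panel each and 1 point per library, with libraries grouped by class on the x axis, WT as circles, TG as triangles and the class mean as a line. Cox6a2 lies at 4.51 to 11.3 CPM in the cortex-marker class and 0.246 to 0.904 CPM in the hindbrain-marker class.

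Cox7a1, the muscle form of subunit 7A, had 1.02, 0.75, 1.03 and 0.738 CPM in the hindbrain-marker libraries and 0.298 to 0.846 CPM (median 0.507) in the olfactory-marker libraries. The ranges overlapped, and its call (0.73 ± 0.28, edgeR adjusted p = 0.0328) was lost in DESeq2 and without any 1 of WT male 3, WT female 4, TG female 1, TG female 2 and TG male 1. Its common partner Cox7a2 had 2.74, 3.89, 3.55 and 3.24 CPM in the hindbrain-marker libraries, 2.78, 2.95 and 1.84 CPM in the cortex-marker libraries, and 3.7 to 4.94 CPM (median 4.23) in the olfactory-marker libraries. It was lower by -0.44 ± 0.16 in the hindbrain-marker class (edgeR adjusted p = 0.0244), a call lost without WT male 3, TG female 2 or TG female 4, in WT libraries alone and with the classes from 5 marker lists, and by -0.79 ± 0.18 in the cortex-marker class (edgeR adjusted p = 0.00233).

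Cox6b2, the testis form of subunit 6B, had 3.03, 3.03, 2.78 and 3.12 CPM in the hindbrain-marker libraries, 1.61, 1.31 and 1.09 CPM in the cortex-marker libraries, 1.47 to 2.3 CPM (median 1.92) in the olfactory-marker libraries and 6.57 CPM in the cerebellum-marker library. The hindbrain-marker libraries stood above both other classes, by 0.63 ± 0.14 over the olfactory-marker class (edgeR adjusted p = 0.00177) and 1.13 over the cortex-marker class. Its common partner Cox6b1 was higher in the hindbrain-marker class by 0.55 ± 0.11. Cox8a had 206, 205 and 229 CPM in the cortex-marker libraries against 151 to 184 CPM (median 157), a difference of 0.39 ± 0.07 with an edgeR adjusted p of 0.000382, and in the hindbrain-marker class it did not pass (0.09 ± 0.06).

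Ndufa4l2, a relative of Ndufa4 known to be induced by low oxygen, had 1.15 to 2.1 CPM in the olfactory-marker libraries and 1.55 to 2.95 CPM in the hindbrain-marker libraries, and did not pass (0.22 ± 0.21). Ndufa4, now placed in complex IV by biochemists although its name is of complex I, was higher in the hindbrain-marker class by 0.56 ± 0.08, and Cox7b by 0.42 ± 0.1. The remaining isoforms were near the limit of 3 counts per library (0.0834 to 0.194 CPM): Cox4i2, the lung form of subunit 4, had 0.0547 to 0.597 CPM, Cox8b 0.0461 to 0.776 CPM, Cox7b2 0 to 1.19 CPM, and Cox8c had 0 counts in all libraries. The highest value of Cox4i2, Cox7b2 and Cox8b was in the cerebellum-marker library.

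That library, TG female 3, was the only one of its class and allows no test. It had a higher level than all 7 olfactory-marker libraries for 61 members (35.2% of all genes) and a lower level than all 7 for 0 members (29.5% of all genes). The median ratio to the olfactory-marker mean was 1.2 over the members and 1.02 over all tested genes. Among the tested members Cox6b2 had the highest ratio at 3.46, and Cox7a2l the lowest at 0.947.

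Genotype was the study's own comparison, and no member passed for it. Over all 15 libraries with sex as a covariate, 0 of 79 members were called by edgeR and 0 had an unadjusted p under 0.05 (1.83% of all genes), while 0.0408% of all genes were called higher in TG and 0.07% lower. DESeq2 and limma-voom also called 0 members, and TG and WT levels overlapped for all 79 (0.0933% of genes did not overlap with TG above, and 0.0933% with TG below). The median log2 difference, TG minus WT, was 0.05, with a range of -0.16 to 0.26 and a median SE of 0.13. The member with the smallest p was Ndufa7, an accessory subunit of complex I, at 5.1, 6.42 and 8.42 CPM (lowest, median and highest of 7 TG) against 4.75, 5.14 and 7.01 CPM (8 WT). The ranges overlapped, and its log2 difference of 0.24 ± 0.13 had an edgeR adjusted p of 1.0. Ndufs4 (0.16 ± 0.12) and Ndufs3 (0.1 ± 0.07) followed.

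Class varied within each genotype, so genotype was also fitted with a term for class. Again 0 of 79 members passed in edgeR, DESeq2 or limma-voom and 0 had an unadjusted p under 0.05 (8.4% of all genes), with 0.233% of all genes higher and 0.262% lower. The median log2 difference was 0.01 and the median SE 0.06. The smallest p-values were those of Ndufa2 (-0.13 ± 0.07, edgeR adjusted p = 0.665), Uqcrc2 (-0.09 ± 0.05) and Ndufs4 (0.15 ± 0.08). A p that misses the threshold does not show equal levels. The members' log2 differences between genotypes lay between -0.17 and 0.24 in this fit.

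**Figure D5:**
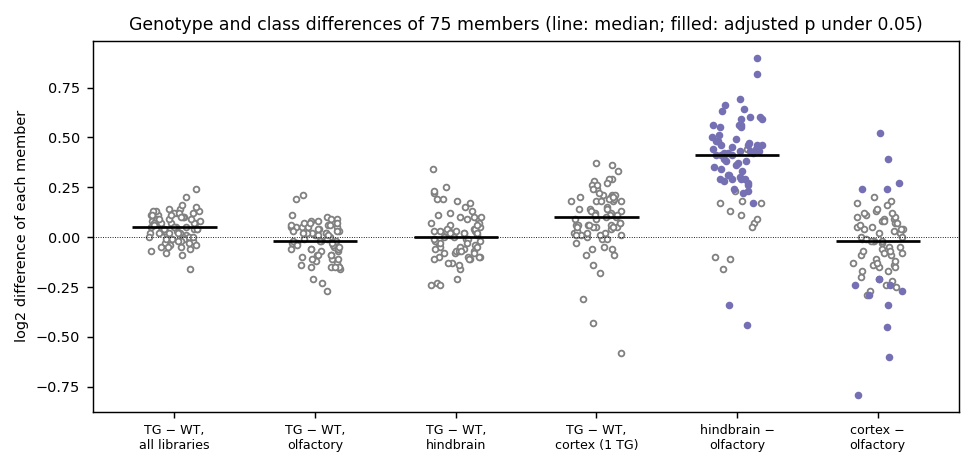
Log2 difference of each of 75 members (tissue isoforms left out) for TG minus WT over all libraries and within 3 classes, and for 2 class comparisons, with the median as a line and called members filled. No genotype difference is filled, and the median is 0.41 for the hindbrain-marker against the olfactory-marker class.

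Within the olfactory-marker class (3 TG and 4 WT) 0 of 79 members passed in edgeR, DESeq2 or limma-voom, 0 had an unadjusted p under 0.05 (7.75% of all genes), and the median log2 difference was -0.02. There 0.128% of all genes were higher and 0.117% lower. The mean log2 CPM over complex I was 4.26 to 4.27 in TG and 4.27 to 4.31 in WT. TG levels lay wholly above WT for 1 member, Ndufv3 (3.83% of all genes), and wholly below for 5, namely Cox7c, Ndufa11, Ndufc2, Cox4i1 and Ndufa1 (2.95% of all genes). Cox7c, a small subunit of complex IV, had 18, 17.8 and 18.1 CPM in TG and 19.4, 18.8, 18.5 and 19.8 CPM in WT, a log2 difference of -0.09 ± 0.1 with an edgeR adjusted p of 0.801. The members with the smallest p were Ndufa2 (-0.21 ± 0.1, edgeR adjusted p = 0.64), Ndufs4 (0.21 ± 0.11) and Uqcrc2 (-0.11 ± 0.07).

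Within the hindbrain-marker class (2 TG and 2 WT), 0 of 79 members passed in edgeR, DESeq2 or limma-voom, 0 had an unadjusted p under 0.05 (5.81% of all genes), and the median difference was 0.0, with 0.0233% of all genes higher and 0.0466% lower. Both TG libraries are female, while the WT libraries are male and female. Member means over all complexes were 4.94 and 5.19 log2 CPM in TG and 5.17 and 5.0 in WT, so the TG range enclosed the WT range. TG levels lay wholly above WT for 2 members, Ndufb3 and Atp5e (18.7% of all genes), and wholly below for 2, Sdhc and Ndufa1 (20.0% of all genes). The median moved to between -0.12 and 0.13 when 1 library was left out (-0.12 without WT female 3, 0.13 without TG female 1, -0.11 without TG female 4). The members with the smallest p were Ndufb3 (0.25 ± 0.14), Ndufb9 (-0.24 ± 0.14) and Sdhc (-0.16 ± 0.09), none passing (edgeR adjusted p of 0.929, 0.931 and 0.933). The genotype effect did not differ between the hindbrain-marker and olfactory-marker classes for any member by edgeR (0 of 79, 0 with an unadjusted p under 0.05 against 5.46% of all genes, 0.00583% of all genes called in each direction), nor by DESeq2 or limma-voom (0). The smallest p was that of Ndufa11 (0.38 ± 0.18, edgeR adjusted p = 0.851).

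Within the cortex-marker class the single TG library, TG male 4, was set against 2 WT libraries. Its spread was taken to be that of the other groups, so the values describe that library and do not bear on genotype in the class. No member passed by edgeR (0 of 79, 1 with an unadjusted p under 0.05 against 10.8% of all genes), DESeq2 or limma-voom (0), with 0.134% of all genes higher and 0.14% lower. The median difference was 0.1, and 63 of 79 values were positive. TG male 4 lay above both WT libraries for 55 members and below both for 10 (35.4% and 37.3% of all genes). Ndufb10 had 81.9 CPM in TG male 4 and 67.5 and 67.4 CPM in the WT libraries (0.29 ± 0.1, edgeR adjusted p = 0.293). Ndufs4 differed by 0.37 ± 0.18 and Cox7a2 by -0.58 ± 0.29.

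Sex gave no member passing (edgeR 0 of 79, 0 with an unadjusted p under 0.05 against 2.19% of all genes, DESeq2 and limma-voom 0) when 0.0233% of all genes were higher in males and 0.0175% lower. The median log2 difference, male minus female, was -0.09, and the smallest p was that of Cox6b2 (-0.59 ± 0.32, edgeR adjusted p = 0.934), then Ndufb7 (-0.22 ± 0.15) and Ndufs7 (-0.18 ± 0.13). The genotype-by-sex interaction gave 0 members (edgeR, 0.0% of all genes in either direction, 1 member with an unadjusted p under 0.05 against 4.07% of all genes, DESeq2 and limma-voom 0). Its median was -0.28 with 5 of 79 values positive, and it moved to -0.01 once a class term was added. The smallest p was that of Ndufa2 (-0.59 ± 0.26, edgeR adjusted p = 0.724), followed by Uqcrq (-0.47 ± 0.23) and Atp5g1 (-0.59 ± 0.29).

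Other genes of mitochondrial energy supply were taken from lists. In the hindbrain-marker against the olfactory-marker class, 14 of 16 tricarboxylic acid cycle genes were higher and 0 lower (median log2 0.27), among them Sucla2 (0.79 ± 0.08), a subunit of succinyl-CoA ligase, and Ogdh (0.76 ± 0.07), of the 2-oxoglutarate dehydrogenase complex. Of 12 carriers, channels and other genes of the respiratory chain, 9 were higher and 0 lower (median 0.35). Those higher included Vdac3 (0.72 ± 0.06), a channel of the outer membrane, Slc25a4 (0.64 ± 0.07), which exchanges ADP for ATP, and Cycs (0.5 ± 0.08), cytochrome c. That list also held Cyc1 of complex III and Ndufab1 of complex I, subunits that the name rule left out of the members. Of 50 tested assembly factors, which build the complexes, 20 were higher and 6 lower (median 0.16). Of all genes 33.1% were higher and 33.7% lower, so the share of assembly factors called higher was near that of all genes. Ndufaf2, of complex I assembly, differed by 1.45 ± 0.12 and Sdhaf3, of complex II assembly, by 1.31 ± 0.2, while Cox20, of complex IV assembly, was lower by -1.02 ± 0.13. For genotype, 0 genes of these 3 lists passed by edgeR with or without the class term.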

How the data were processed

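The authors deposited whole-number counts per gene for 15 libraries of 100 bp paired reads. The submitters' processing notes name STAR 2.7.5b, GRCm38, Subread and its counter featureCounts. Settings for strand and for reads with several matches are not given in the sources used here. Of 27179 gene IDs, 25275 were named through RefSeq.

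Counts were tested with edgeR 4.0.16 (R 4.3.3, limma 3.58.1, DESeq2 1.42.0): filterByExpr, TMM scaling, robust quasi-likelihood F tests, Benjamini-Hochberg adjustment over 17151 genes at 0.05. CPM use TMM-scaled totals, and differences are log2 ± SE. Scripts were tested on simulated data. Every pair of libraries differed beyond counting noise (lowest chi-square per gene 6.03). The labels do not say that libraries come from separate animals, and titles within a genotype-and-sex group share a number, so p-values measure the spread between libraries. The 3-count limit covers counting error only.

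Library classes came from Ward clustering on 6 region lists. The olfactory list was added after 5 lists had placed 2 libraries rich in olfactory markers in the cortex class, and the 5-list classes are an alternative. Members and lists were chosen with earlier results of these data known. Named members are, per comparison, up to 6 called per direction by size, or else the 3 smallest p-values, plus the core and isoform genes; of other lists, up to 3 called per direction. Alternatives included other size factors and tools, no filter, a replicate block, WT libraries only and each library left out. A check of the transgene's RNA and the values of some genes are not reported here.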

Additional observations from a re-analysis of the deposited data

Results flagged for a closer look

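Of 105 groups of values tested, 8 had 1 library far from the rest of its group, and chance alone gives about 1 in 20 such groups. Of these, 5 were hindbrain-marker libraries standing apart from libraries of other classes in the same genotype and sex. WT female 3 was highest among WT females for Sdha at 298 CPM (others 211 to 224 CPM), for the complex III mean at 5.73 log2 CPM (others 5.42 to 5.45) and for the complex IV mean at 5.08 log2 CPM (others 4.78 to 4.82). WT male 3 was highest among WT males for Uqcrc1 at 137 CPM (others 97.4 to 99.1 CPM) and for Cox4i1 at 234 CPM (others 143 to 148 CPM).

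The other 3 lay within a class. WT male 3 was highest of the hindbrain-marker libraries for Sdhb at 7.04 CPM (others 5.81 to 6.02 CPM) and lowest for Cox6a2 at 0.246 CPM (others 0.795 to 0.904 CPM). WT male 2 was highest of the olfactory-marker libraries for the complex IV mean at 4.88 log2 CPM (others 4.76 to 4.81).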

How the results depend on the processing

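No result that passed its test changed direction under the settings run, and no setting called a member for genotype, sex or their interaction. The number of members higher in the hindbrain-marker class stayed between 52 and 64 against the olfactory-marker class and between 45 and 66 against the cortex-marker class over all settings. The number lower fell to 1 in both comparisons with a replicate block, in WT libraries only and with the 5-list classes. For the cortex-marker against the olfactory-marker class, 3 were higher with a replicate block and in WT libraries only, and 2 were lower in WT libraries only; with the 5-list classes 0 were higher and 0 lower. Leaving out 1 library gave 3 to 7 higher and 5 to 12 lower there. The interaction median was -0.01 with a class term. Leaving out 1 library, the genotype median ran from -0.12 to 0.13 within the hindbrain-marker class, and the difference between class effects from -0.1 to 0.14. The cause was not tested where none is named; WT libraries only and left-out libraries have fewer samples.

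The correlation of deviations from the genotype-and-sex group means ran from -0.629 to 0.917 over 21 same-number pairs, with 7 over 0.1. These deviations also hold the differences between classes, so they do not settle whether replicate numbers pair the samples. With the block, Cox6a2 (-1.07), Cox7a2 (-0.37) and Cox7a1 (0.56) did not pass between the hindbrain-marker and olfactory-marker classes, nor did Cox8a (-0.19) between the hindbrain-marker and cortex-marker classes. With it, 53 members were higher in the hindbrain-marker class in each comparison, and 9 were lower in the cortex-marker against the olfactory-marker class. The spread between libraries limits the genotype test. The biological coefficient of variation common to all tested genes was 43.1% with genotype and sex, and 14.2% with class added. For the members alone the median SE of the log2 genotype difference was 0.13, and 0.06 with class added.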

Other observations

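Genes of mitochondrial biogenesis did not move with the subunits. Of 16, 3 were higher and 10 lower in the hindbrain-marker against the olfactory-marker class by edgeR (33.1% and 33.7% of all genes), with a median log2 difference of -0.3. Higher were the nuclear receptors Esrrb (3.16 ± 0.19) and Esrrg (0.76 ± 0.15) and Tfam (0.66 ± 0.08), which packages mitochondrial DNA. Lower were Tfb1m (-1.04 ± 0.16), which methylates mitochondrial ribosomal RNA, Polg (-0.94 ± 0.09), the mitochondrial DNA polymerase, and the coactivator Ppargc1b (-0.76 ± 0.09). In the cortex-marker class Esrrb (1.48 ± 0.21) was higher and 5 were lower, among them Ppargc1a (-0.66 ± 0.14). There 25.0% of all genes were higher and 23.9% lower.

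Of 16 glycolysis genes, 8 were higher and 3 lower in the hindbrain-marker class (33.1% and 33.7% of all genes), with a median of 0.18. Aldoc (1.55 ± 0.08), an aldolase of astrocytes and Purkinje cells, led those higher, and Pfkp (-0.56 ± 0.09) and Ldha (-0.51 ± 0.14) were lower. In the cortex-marker class 11 were higher and 1 lower (median 0.29; 25.0% and 23.9% of all genes), with Ldha (0.8 ± 0.14) and Hk1 (0.58 ± 0.09) higher and Ldhb (-0.45 ± 0.11) lower. Ldha, a lactate dehydrogenase subunit, thus lay on opposite sides of the olfactory-marker level in the other 2 classes.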
